A study of Mus musculus with 24 samples.

Results

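The genes described here encode the nuclear subunits of respiratory complexes II to V, with cytochrome c. They are the protein-coding genes of the count table whose mouse symbols match the patterns Sdha to Sdhd, Cyc1 and Uqcr (complexes II and III), Cycs (cytochrome c), Cox4 to Cox8 (complex IV) and Atp5 (complex V). Of 21965 genes listed, 50 belong to the group: 4 of complex II, 9 of complex III, 1 for cytochrome c, 18 of complex IV and 18 of complex V. The pattern also takes in Cox7a2l, which joins complexes into supercomplexes, and the accessory genes Atp5s and Atp5mpl. A total of at least 10 counts across the libraries was reached by 48 of the 50, and these were tested together with the rest of 17167 genes. The others were Cox8c, which had no count in any library, and a second gene identifier named Atp5o, which had 2 counts and overlaps the first.

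The libraries come from the thoracic spinal cord of OL-Ribotag mice, which carry an inducible Cre and an Rpl22 allele whose HA-tagged form is made after Cre has removed a stop. Mice of all groups were C57Bl/6 females given tamoxifen. Injured mice received a moderate T9 contusion of 50 kdyn at 10 to 12 weeks of age per the labels, and cord around the lesion was taken at 2, 10 or 42 days post-injury (dpi). Naive mice had no injury. Every group held 3 pools of tissue, each from a pair of mice. From each pool 1 library was made of total RNA and 1 of RNA pulled down with HA-tagged ribosomes, called OL for oligodendrocytes (the cells that make myelin in the cord), which gave 24 libraries in 8 groups of n = 3. The tag depends on the cells in which this Cre is made, which include Schwann cells of peripheral nerve.

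The complexes named here sit in the inner mitochondrial membrane. Complex II (succinate dehydrogenase) oxidizes succinate and passes electrons to ubiquinone, complex III hands them to cytochrome c, and complex IV (cytochrome c oxidase) gives them to oxygen. Complexes III and IV pump protons, and complex V (ATP synthase) lets protons return through its c-ring to drive ATP synthesis. Nuclear genes encode every subunit of complex II and most subunits of the others, while the catalytic core of complex IV, cytochrome b and parts of the membrane domain of complex V come from mitochondrial genes, which are not members here. In oligodendrocytes this machinery supplies ATP while large amounts of myelin lipid and protein are made, although mature oligodendrocytes are also known to survive on glycolysis. Complex IV has tissue isoforms of several subunits (Cox4i2, Cox6a2, Cox6b2, Cox7a1, Cox7b2, Cox8b, Cox8c), and a set of genes (Atp5g1, Atp5g2, Atp5g3) encodes the same mature c-ring protein.

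Promoters of such genes are known for sites of NRF1, of ETS factors such as GABPA, of YY1 and of SP1. RefSeq promoter windows on GRCm38.p6 were matched for 37 of 49 member symbols, as 40 windows of 300 bases around the start. The NRF1 core GCGCATGCG, searched on both strands like the other motifs, was held by 7 of 40 windows (17.5%) against 1.75% of all 32851 windows of the same length. The ETS core CCGGAAG was held by 12 of 40 (30%) against 8.86%, the YY1 core AAGATGGCG by 2 of 40 (5%) against 1.40%, and the SP1 core GGGCGGGG by 7 of 40 (17.5%) against 17.6%. No match overlapped a match of another motif, and a match of letters is not a site of binding. The promoters of 4 genes are shown because the calls of their transcripts in OL differed between times, as described below. Cox6a1, Atp5e and Cycs rose on dpi 2 and did not pass the test on dpi 10. Atp5b fell on dpi 10 and did not pass it on dpi 2. The promoters are the 250 bases before the start, printed along the strand of the gene, with motif matches of either strand in capitals. Those of Cox6a1 (chr5:115348959-115349208), Atp5e (chr2:174464102-174464351) and Cycs (chr6:50566570-50566819) lie on the minus strand and that of Atp5b (chr10:128083057-128083306) on the plus strand. The capitals mark overlapping NRF1 cores of both strands and an ETS core in Cox6a1, an SP1 and an ETS core in Atp5e, an NRF1 core in Cycs and an SP1 core in Atp5b.
Cox6a1: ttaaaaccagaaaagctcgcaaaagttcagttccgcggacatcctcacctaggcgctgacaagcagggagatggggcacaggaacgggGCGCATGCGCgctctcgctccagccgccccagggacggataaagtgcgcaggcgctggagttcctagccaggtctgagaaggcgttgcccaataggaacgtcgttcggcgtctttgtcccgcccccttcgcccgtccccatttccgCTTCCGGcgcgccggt
Atp5e: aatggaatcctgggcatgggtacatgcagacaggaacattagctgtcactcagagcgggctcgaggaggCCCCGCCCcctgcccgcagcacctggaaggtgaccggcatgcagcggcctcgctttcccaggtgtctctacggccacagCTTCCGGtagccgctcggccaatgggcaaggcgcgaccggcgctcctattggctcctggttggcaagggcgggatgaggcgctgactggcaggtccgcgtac
Cycs: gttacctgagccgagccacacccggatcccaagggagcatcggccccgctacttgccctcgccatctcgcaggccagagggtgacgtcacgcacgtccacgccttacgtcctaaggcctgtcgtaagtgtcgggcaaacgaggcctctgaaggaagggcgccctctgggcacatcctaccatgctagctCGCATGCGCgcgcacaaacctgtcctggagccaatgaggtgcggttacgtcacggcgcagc
Atp5b: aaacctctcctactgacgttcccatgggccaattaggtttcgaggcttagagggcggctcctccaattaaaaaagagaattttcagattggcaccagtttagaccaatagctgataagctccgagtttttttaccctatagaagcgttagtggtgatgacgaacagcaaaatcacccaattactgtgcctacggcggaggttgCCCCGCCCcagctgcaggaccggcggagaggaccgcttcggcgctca

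Libraries held 25840127 to 32987841 counts each, so 3 counts equal 0.0840 to 0.127 CPM (counts scaled to a common depth). Levels below are CPM after TMM scaling, which corrects for RNA composition. Summed CPM of 8 oligodendrocyte markers was 125486 to 169078 in naive OL and 23317 to 28993 in naive total RNA. Schwann markers summed to 0.084 to 627 in naive OL, where pool 3 was the high one, and to 1174 to 1358 in OL of dpi 42. Markers of 4 astrocyte genes summed to 713 to 3888 in naive OL, 801 to 6429 on dpi 2 and 1606 to 10509 on dpi 42. The 6 microglia and macrophage markers all rose in OL (median log2 fold changes of 2.51, 3.56 and 2.37 on dpi 2, 10 and 42), from sums of 9.94 to 15.5 CPM in naive OL to 38.7 to 54.9 on dpi 2, 82.0 to 115 on dpi 10 and 45.1 to 85.2 on dpi 42. Of 4 endothelial markers 3 rose on dpi 2 (median 1.95), from sums of 4.29 to 4.97 CPM to 9.37 to 17.3, and 2 and 3 rose on dpi 10 and 42. The part of these other cell types in the OL results below was not tested. Both libraries of dpi 2 tissue pool 2 held counts on Y-linked genes (summed CPM 97.8 in OL and 77.9 in total RNA) although the labels give females, so the counts of members called on dpi 2 in OL, total RNA and both tests of OL enrichment are also given without it, while values of single genes and gene lists include it. Labels of 1 OL and 1 total library of dpi 42 conflict, and most counts over all members on dpi 42 are also given without them.

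Per kilobase of transcript, Atp5b, the catalytic beta subunit of ATP synthase, was highest of the 48 in naive OL at a mean of 488 CPM per kb, followed by Cox4i1 at 473 and the alpha subunit gene Atp5a1 at 309. In naive total RNA the order again began with Atp5b (748) and Cox4i1 (674), and in OL of dpi 2 it began with Cox4i1 (730), Cox6a1 (597) and Atp5b (411).

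On dpi 2 most of these genes rose in OL. Of 48, 33 rose and 2 fell (edgeR quasi-likelihood test, q under 0.05 after Benjamini-Hochberg adjustment over all tested genes), against 18.4% of all tested genes that rose and 20% that fell. The median log2 fold change of the members was 0.70, that of all tested genes was 0.00, and 16 members rose by more than 1. By complex, 2 of 4 genes rose in complex II (median 0.44), 6 of 9 in complex III (1.05), 12 of 17 in complex IV (0.91) and 12 of 17 in complex V (0.68), and cytochrome c rose too. The 2 that fell were Sdha and Uqcrc2. Without tissue pool 2, 32 rose.

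Complex II was divided on dpi 2. Positions given from here on are whole genes on GRCm38, from GENCODE M21. Sdha (chr13:74322254-74350280, minus strand), the flavoprotein that holds the succinate site, had 495, 531 and 555 CPM in the naive OL libraries and 373, 366 and 369 on dpi 2. Every dpi 2 library was below every naive one (log2 fold change -0.51 ± 0.09, q = 1.3e-04). Sdhc (chr1:171127165-171150603, minus strand), a membrane anchor that binds ubiquinone, went the other way, from 113, 118 and 148 to 185, 207 and 226 CPM (0.70 ± 0.12, q = 5.9e-05). The iron-sulfur subunit Sdhb had 101, 105 and 123.3 CPM in naive OL and 120.5, 114 and 153 on dpi 2, groups that overlapped (0.23 ± 0.13, q = 0.16).

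In complex III the small subunits rose most. Uqcrq (chr11:53427922-53430831, minus strand), a small subunit next to cytochrome b, had 48.0, 50.7 and 66.9 CPM in naive OL and 127, 167 and 149.5 on dpi 2, without overlap (1.42 ± 0.14, q = 7.2e-08). Of the core proteins, Uqcrc2 (chr7:120635176-120659524, plus strand) fell from 245, 247 and 229 to 165, 160.0 and 187 CPM (-0.49 ± 0.10, q = 3.2e-04). Uqcrc1 overlapped its naive range, with 195, 205 and 239 CPM and then 207, 192 and 224 (-0.04 ± 0.12, q = 0.89). Among the redox subunits, the Rieske protein gene Uqcrfs1 went from 96.1, 103 and 124 to 127, 122.8 and 144 CPM, a rise that just passed the test although the groups overlapped (0.29 ± 0.11, q = 0.048, and -0.18 with the length and GC offset described below). Cyc1, which encodes cytochrome c1, had 82.0, 87.4 and 115 CPM in naive OL and 107, 86.5 and 128 on dpi 2 (0.18 ± 0.14, q = 0.34). Cycs (chr6:50562563-50566538, minus strand), the soluble carrier between complexes III and IV, which also triggers the apoptosome when it leaks into the cytosol, rose from 25.1, 28.0 and 31.6 to 44.6, 45.1 and 47.5 CPM, without overlap (0.70 ± 0.11, q = 2.0e-05). Pseudogenes of Cycs, Cox7c, Uqcrh, Atp5e, Atp5l and the Atp5g genes are known, and the treatment of reads with several matches is not given in the sources used here, so levels of these genes are less certain.

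Complex IV rose through most of its common subunits. Cox6a1 (chr5:115345642-115348981, minus strand), a small regulatory subunit, had 143, 141 and 165 CPM in naive OL and 305, 364 and 355 on dpi 2 (1.19 ± 0.11, q = 2.4e-08). Cox4i1, the subunit through which ATP inhibits the enzyme, went from 342, 358 and 357 to 489.9, 643 and 497 CPM (0.62 ± 0.13, q = 6.1e-04). Cox5a, its matrix-side partner, went from 67.0, 70.1 and 98.0 to 114, 129.8 and 172 CPM (0.82 ± 0.17, q = 7.3e-04). In each of these 3 genes the dpi 2 libraries lay above the naive ones, but with the length and GC offset described below the change of Cox4i1 was -0.33 and that of Cox5a was just below 0.

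In complex V small subunits rose and the large catalytic ones did not pass the test. Atp5e (chr2:174461072-174464105, minus strand), which encodes the small epsilon subunit of the central stalk, rose from 32.2, 29.1 and 42.5 to 78.3, 91.9 and 94.4 CPM, without overlap (1.35 ± 0.17, q = 1.5e-06). The catalytic subunit gene Atp5b (chr10:128083273-128090391, plus strand) had 845, 874 and 1085 CPM in naive OL and 755, 632 and 972 on dpi 2, with overlap (-0.25 ± 0.13, q = 0.16). Atp5a1, the alpha subunit of the same ring, had 664, 723 and 901 CPM and then 622, 553 and 723 (-0.27 ± 0.12, q = 0.085). These abundant genes weigh on the summed CPM of complex V, which was 2660, 2759 and 3434 in naive OL and 3110, 2996 and 3765 on dpi 2, with overlap. Complex IV went from sums of 1025, 1022 and 1241 to 1804, 2114 and 2155 CPM, without overlap.

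**Figure D1:**
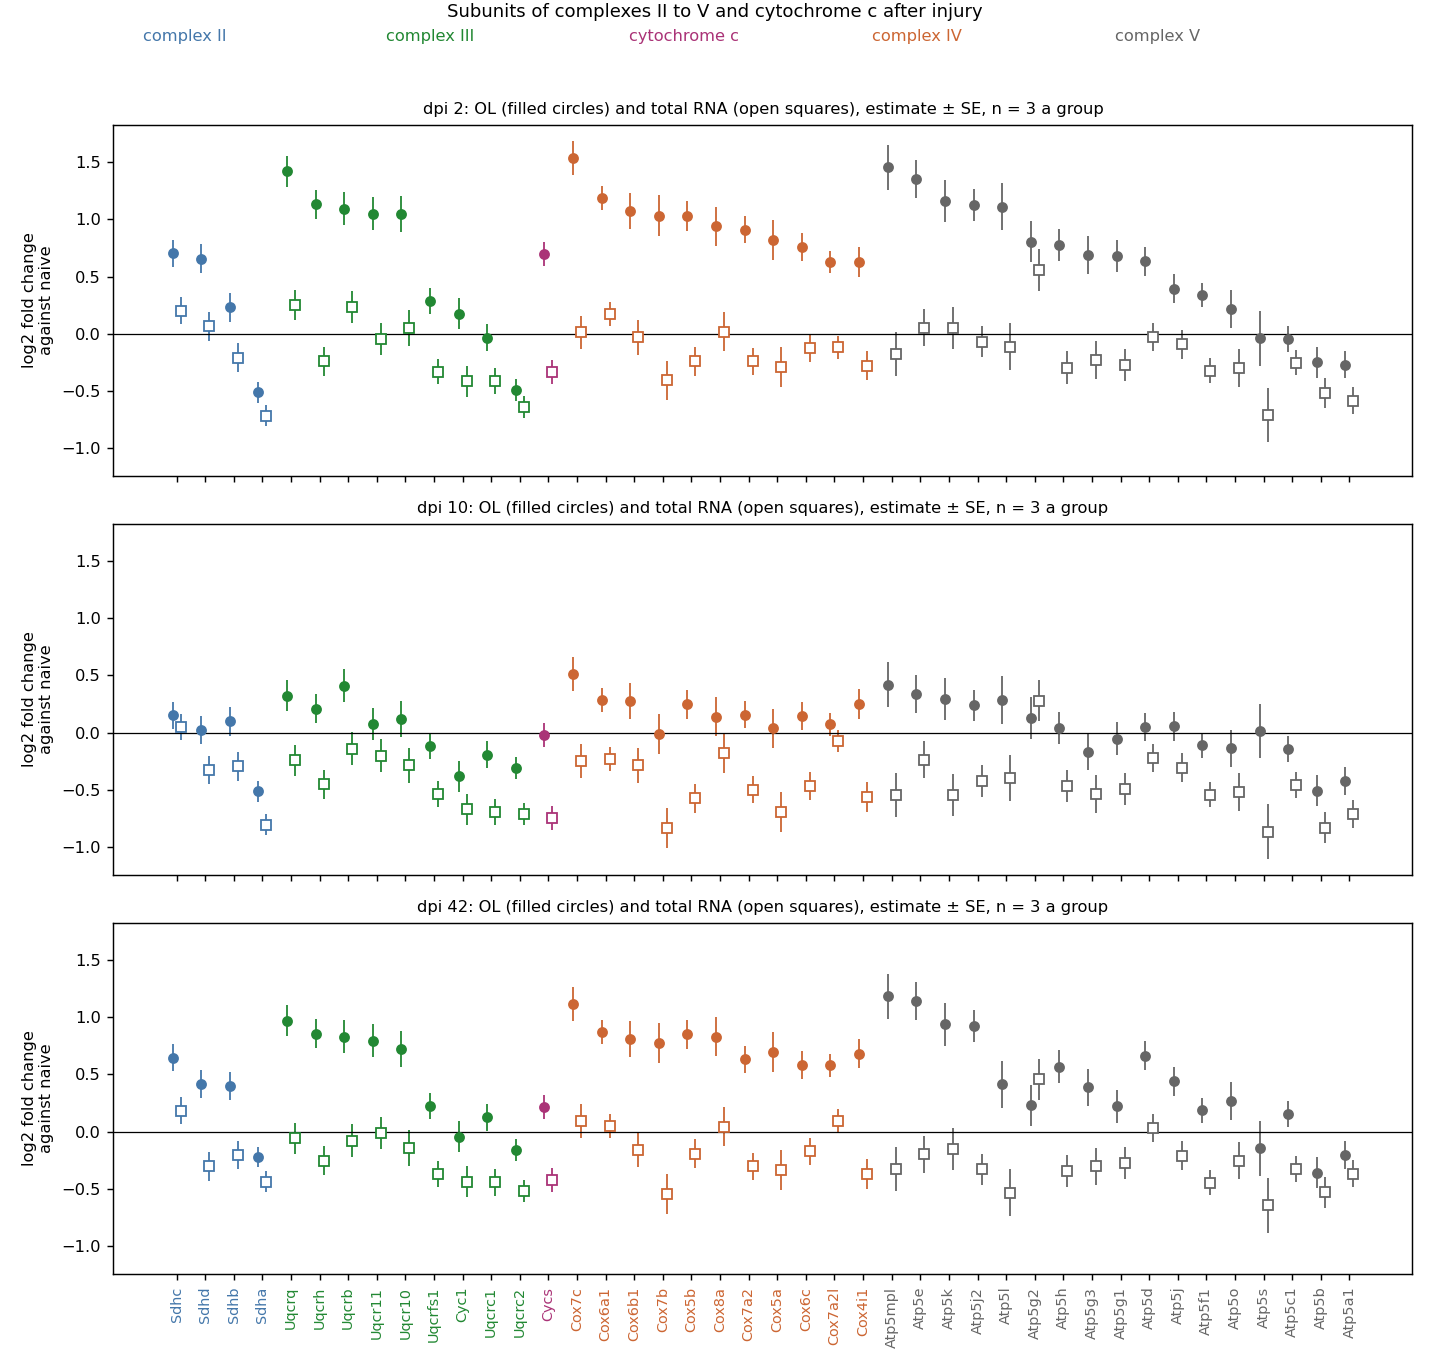
Log2 fold change against naive (y axis, estimate ± SE, n = 3 libraries a group) of 42 members (x axis, coloured by complex) in OL (filled circles) and total RNA (open squares) on dpi 2, 10 and 42. Low-expressed isoforms are left out. On dpi 2 and 42 most filled circles lie above 0, with Sdha, Uqcrc2, Atp5b, Atp5a1 and Atp5s below it at both times. Most open squares lie below 0 on dpi 10.

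The change in OL was related to transcript length. Of 32 members with a transcript under 1000 bases, 26 rose on dpi 2 and 0 fell (median 0.98), and of 16 longer ones 7 rose and 2 fell (median 0.20). This length limit was chosen after values were seen. Other genes moved with length as well: among 582 other genes with a transcript under 1000 bases and a mean of at least 10 CPM, 73.0% rose (median 0.81), and among 9289 longer ones 19.6% rose (median -0.15). Across the 48 members Spearman's rho of length and log2 fold change was -0.54, a description over genes that share libraries. With an offset for length and GC content fitted to each library, 6 members rose and 14 fell. The part of length in the rise was not tested.

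**Figure D2:**
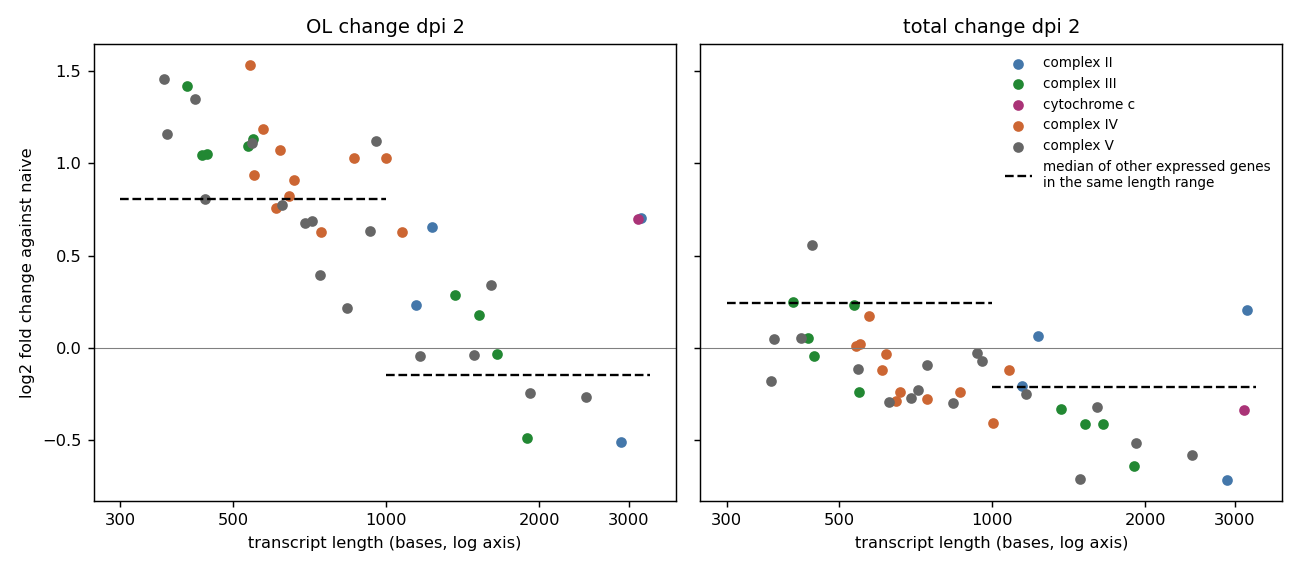
Log2 fold change against naive on dpi 2 (y axis) by transcript length in bases (x axis, log scale) of the members, in OL at left and total RNA at right. Dashed lines are medians of other genes with a mean of at least 10 CPM, under and over 1000 bases. In OL the short members scatter around the line at 0.81, and in total RNA most lie below the line at 0.24.

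By dpi 10 few members were above naive in OL. Of 48, 1 rose (9.62% of all tested genes rose) and 4 fell (8.59% fell), with a median of 0.09. The gene that rose was Cox7c (chr13:86044816-86046904, minus strand), a small subunit of complex IV, with 20.002, 21.5 and 25.3 CPM in naive OL and 30.6, 32.6 and 32.1 on dpi 10 (0.51 ± 0.15, q = 0.019). The 4 that fell encode large catalytic or core proteins, and their number was 1 with library sizes alone or without dpi 10 tissue pool 3 and 2 in a fit of the groups compared alone. Sdha fell to 404, 380.2 and 324 CPM (-0.51 ± 0.09, q = 4.6e-04) and Uqcrc2 to 211, 179 and 191 (-0.31 ± 0.10, q = 0.027). Atp5b fell to 672, 690.3 and 608 CPM (-0.51 ± 0.13, q = 0.011) and Atp5a1 to 616, 580.0 and 513 (-0.42 ± 0.12, q = 0.018). In each of these 4 genes the dpi 10 libraries were below the naive ones. The number that rose was 8 without naive OL replicate 3, the naive library with the highest members (median log2 distance of 0.19 from the group mean). With the length and GC offset 0 rose and 25 fell. Against dpi 2 itself, 32 of 48 were lower on dpi 10 (median -0.68), where 10.6% of all tested genes were lower, and 1 was higher. Without dpi 2 tissue pool 2 the number lower was also 32. Cox6a1 came down to 169.7, 184 and 193 CPM (-0.90 ± 0.11, q = 2.8e-06) and Cycs to 28.0, 27.4 and 27.9 (-0.72 ± 0.11, q = 3.7e-05).

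On dpi 42 members were high in OL again. Against naive, 28 of 48 rose (16.2% of all tested genes rose) and 1 fell (16.9% fell), with a median of 0.65. By complex 3 of 4 rose in II, 5 of 9 in III, 13 of 17 in IV and 7 of 17 in V, while Cycs, at 33.8, 30.1 and 34.7 CPM, did not pass the test (0.22 ± 0.10, q = 0.12). Cox6a1 had 286, 277 and 258 CPM (0.87 ± 0.11, q = 3.8e-06) and Uqcrq 119, 118 and 87.4 (0.97 ± 0.14, q = 1.6e-05). Sdhc reached 224, 202 and 168 CPM (0.65 ± 0.12, q = 2.2e-04) and Atp5e 94.9, 76.7 and 57.2 (1.14 ± 0.16, q = 2.1e-05). All dpi 42 libraries of these 4 genes were above the naive ones, and replicate 3 was the lowest in each. With the length and GC offset the changes of Cox6a1 and Uqcrq were -0.19 and -0.11. Over the members that replicate stood 0.31 above the naive group in the median, against 0.76 and 0.70 for the others.

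The member that fell in OL on dpi 42 was Atp5b of complex V. It had 771, 764 and 652 CPM (-0.36 ± 0.13, q = 0.045), but this call was lost with DESeq2 size factors (q = 0.057), library sizes alone (q = 0.27), the groups compared alone (q = 0.16) and the replicate block (q = 0.059). It was also lost without OL replicate 3 or tissue pools 2 or 3 of dpi 42 and without OL replicate 3 or tissue pools 2 or 3 of naive tissue (edgeR q of 0.062 to 0.22). Sdha had 512, 431 and 412 CPM and did not pass the test (-0.22 ± 0.09, q = 0.069). Sdhb, at 163, 153 and 118 CPM, rose (0.40 ± 0.13, q = 0.018), as did Cox4i1, at 659, 552 and 486 (0.68 ± 0.13, q = 3.8e-04), and Cox5a, at 153, 133 and 94.8 (0.69 ± 0.17, q = 0.004), while with the length and GC offset these 3 were at -0.38, -0.32 and -0.11. Short members again moved more: 23 of 32 rose (median 0.83) and 5 of 16 longer ones (0.17), and of other short genes 70.1% rose (median 0.65). With the offset 4 members rose and 18 fell. Without the libraries with conflicting labels 24 rose and 2 fell.

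The step from dpi 10 to dpi 42 was tested directly. In OL 23 of 48 members rose and 0 fell (median 0.50), where 3.28% of all tested genes rose. The number was 10 without the conflicting libraries, 6 without dpi 42 OL replicate 1, 2 in a fit of these groups alone and 2 with the length and GC offset. Between dpi 2 and dpi 42, 9 members differed (17.6% of all tested genes differed). Higher on dpi 42 were Sdha (0.29 ± 0.09, q = 0.033), Uqcrc2 (0.33 ± 0.10, q = 0.021) and Cox6b2, and lower were Uqcrq, Cox6a1, Atp5g1, Atp5g2, Atp5l and Cycs (-0.48 ± 0.10, q = 0.003). In a fit of these groups alone 0 differed, and without the OL library of dpi 2 pool 2 the number was 4.

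**Figure D3:**
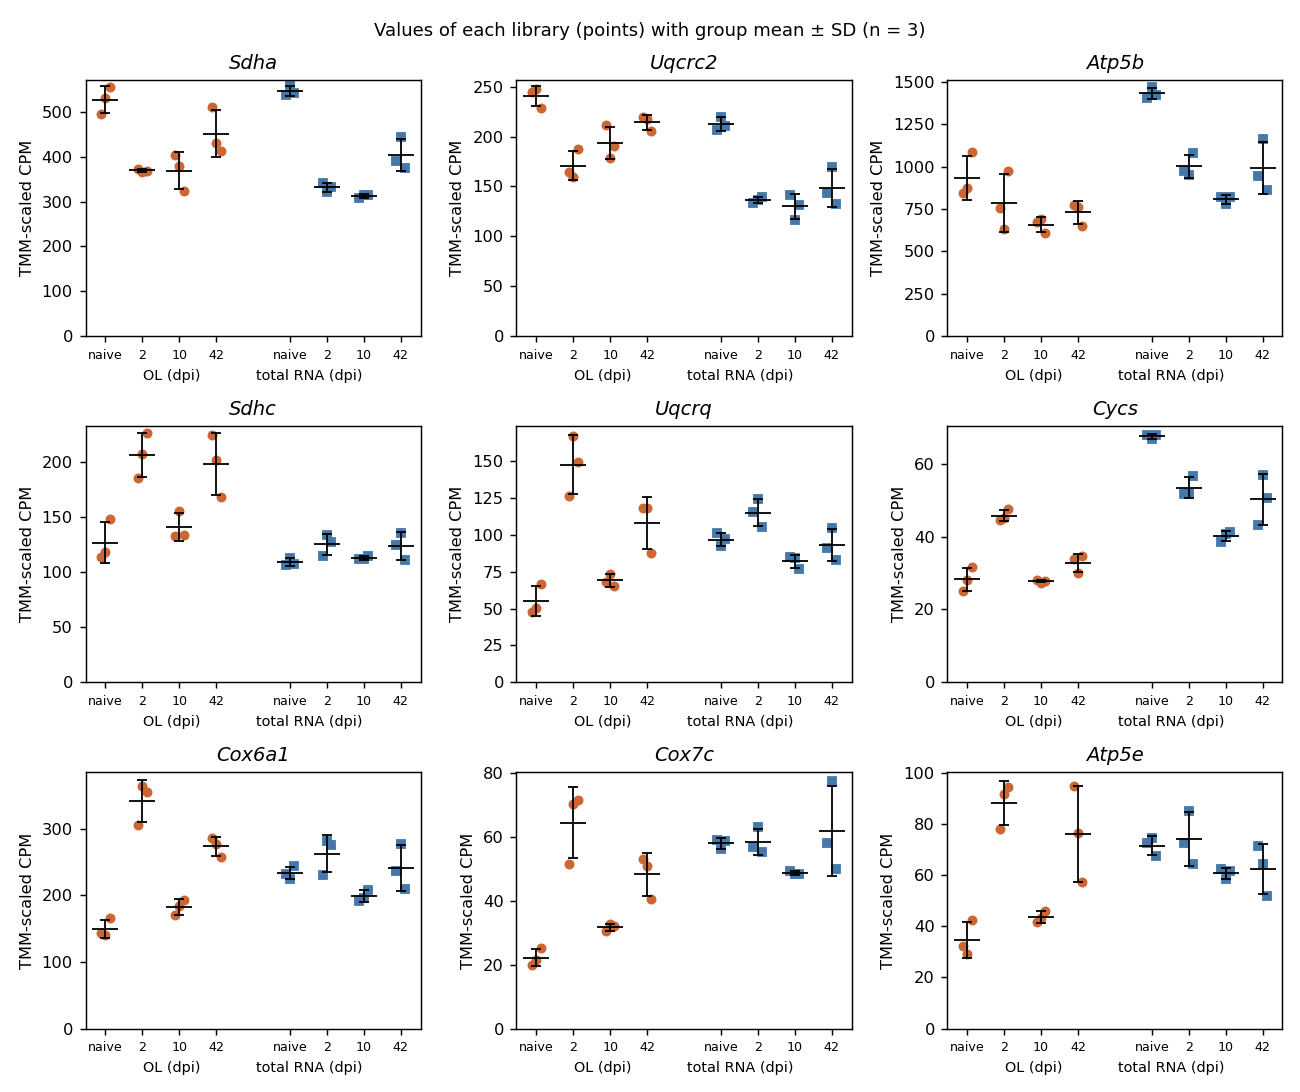
TMM-scaled CPM (y axis, from 0) of 9 members in each library, with group mean ± SD (n = 3), in OL and total RNA of naive tissue and dpi 2, 10 and 42 (x axis). Sdha fell on dpi 2 and 10 in both kinds of RNA, while Uqcrq, Cox6a1, Cox7c and Atp5e were high in OL on dpi 2 and 42.

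In total RNA the share of members that fell on dpi 2 equalled that of all tested genes. On dpi 2, 2 of 48 rose (16.4% of all tested genes) and 10 fell (20.8% of the members and of all tested genes), with a median of -0.20 beside -0.10 for all tested genes. On dpi 10, 2 rose (13.9%) and 25 fell (18.2%), with a median of -0.46 beside -0.10. On dpi 42, 2 rose (10.4%) and 12 fell (12.1%), with a median of -0.25 beside -0.08. Complex V held 12 of the 25 that fell on dpi 10, complex IV 6, complex III 5 and complex II 1, and Cycs was the other. With library sizes alone 3, 14 and 3 fell at the successive times, and 6, 2 and 3 rose, so that on dpi 2 more rose than fell, as with a total RNA library as TMM reference (6 rose and 4 fell). Without the libraries of conflicting label 21 fell and 1 rose on dpi 42, and without dpi 42 tissue pool 3 the number that fell was 5. On dpi 2, 10 fell without tissue pool 2 and 5 without tissue pool 1. In bulk tissue fewer cells of a type and less RNA per cell cannot be told apart.

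The core genes of the complexes fell in total RNA on dpi 10. Sdha went from 537, 559 and 543 CPM to 342, 322 and 334 on dpi 2 (-0.72 ± 0.09, q = 3.1e-06) and to 308, 316 and 315 on dpi 10 (-0.81 ± 0.09, q = 1.1e-06). Uqcrc1 fell from 264, 284 and 269.8 to 174, 161 and 171 CPM (-0.69 ± 0.12, q = 9.6e-05) and Cyc1 from 162, 173 and 163 to 106, 96.8 and 111 (-0.67 ± 0.14, q = 6.4e-04). Uqcrc2 fell from 207, 219.9 and 211 to 141, 117 and 132 CPM (-0.71 ± 0.10, q = 8.7e-06). In complex V Atp5b fell from 1407, 1469 and 1422 to 823, 778 and 818 CPM (-0.83 ± 0.14, q = 6.9e-05) and Atp5a1 from 972, 978 and 976 to 605, 587 and 599 (-0.71 ± 0.12, q = 1.1e-04). In these 6 genes the dpi 10 libraries were below the naive ones without overlap. Cox4i1 and Cox5a fell as well (-0.57 ± 0.13, q = 0.0019, and -0.69 ± 0.17, q = 0.0036). Sdhb did not pass the test (-0.29 ± 0.13, q = 0.08). Over the same tissue the summed CPM of 6 neuron markers was 9521 to 10208 in naive total RNA, 3806 to 5086 on dpi 2, 4134 to 4561 on dpi 10 and 5019 to 8141 on dpi 42, none of them without counts. The 6 microglia and macrophage markers summed to 162 to 189 in naive tissue and 1189.7 to 1528 on dpi 10. Their part in the fall of the members was not tested.

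In total RNA short members had lower median changes than other short genes, a difference that was not tested. Members under 1000 bases had a median change of -0.06 on dpi 2 and -0.35 on dpi 10, and other short genes had 0.24 and 0.03. On dpi 10, 13 of 32 short members fell (40.6%), where 15.5% of other short genes did, and 12 of 16 longer members fell, where 31.5% of other longer genes did. With the length and GC offset 35, 39 and 34 members fell on dpi 2, 10 and 42.

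OL enrichment compares OL with total RNA of the same time. In naive tissue 35 of 48 members were lower in OL and 0 higher (30.5% and 24.9% of all tested genes), and the median was -0.84 beside -0.27 for all tested genes. In complexes III, IV and V 7 of 9, 12 of 17 and 14 of 17 were lower, and in complex II 1 of 4. On dpi 2 the median was -0.01, with 10 higher (24.8%) and 4 lower (28.8%). On dpi 10 it was -0.46, with 4 higher (25.2%) and 24 lower (28.8%), among them Cox8b, which had no count in OL of dpi 10. On dpi 42 it was -0.06, with 7 higher (24.9%) and 11 lower (28.9%), or 6 higher and 4 lower without the conflicting libraries. The 4 higher on dpi 10 were Sdha (0.24 ± 0.09, q = 0.032), Sdhc (0.32 ± 0.12, q = 0.025), Uqcrc2 (0.58 ± 0.10, q = 3.0e-05) and Uqcrfs1 (0.36 ± 0.11, q = 0.0097). The 4 lower on dpi 2 were Cox6b2 (-2.55 ± 0.73, q = 0.0059), Cox7a2l (-0.32 ± 0.10, q = 0.008), Atp5b (-0.35 ± 0.13, q = 0.034) and Atp5j, the F6 subunit of the stator (-0.37 ± 0.13, q = 0.018), and without tissue pool 2 the number lower was 0 and the number higher 5. The number lower was 11 without dpi 2 OL replicate 3. On dpi 10 it was 14 to 21 with a library or tissue pool left out, below the 24 of the main fit, and lowest without dpi 10 OL replicate 1.

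Enrichment moved with scaling, since TMM factors were 0.742 to 0.899 in OL and 1.10 to 1.29 in total RNA. With library sizes alone the median of all tested genes was -0.78 in naive tissue and -0.76, -0.80 and -0.69 at the successive times after injury, and 42, 32, 40 and 28 members were lower in OL with 0 higher at each of these. Under TMM scaling the members' median was below that of all tested genes in naive tissue and on dpi 10, and above it on dpi 2 and 42. With a replicate block by tissue pool 11 were higher and 8 lower on dpi 2.

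**Figure D4:**
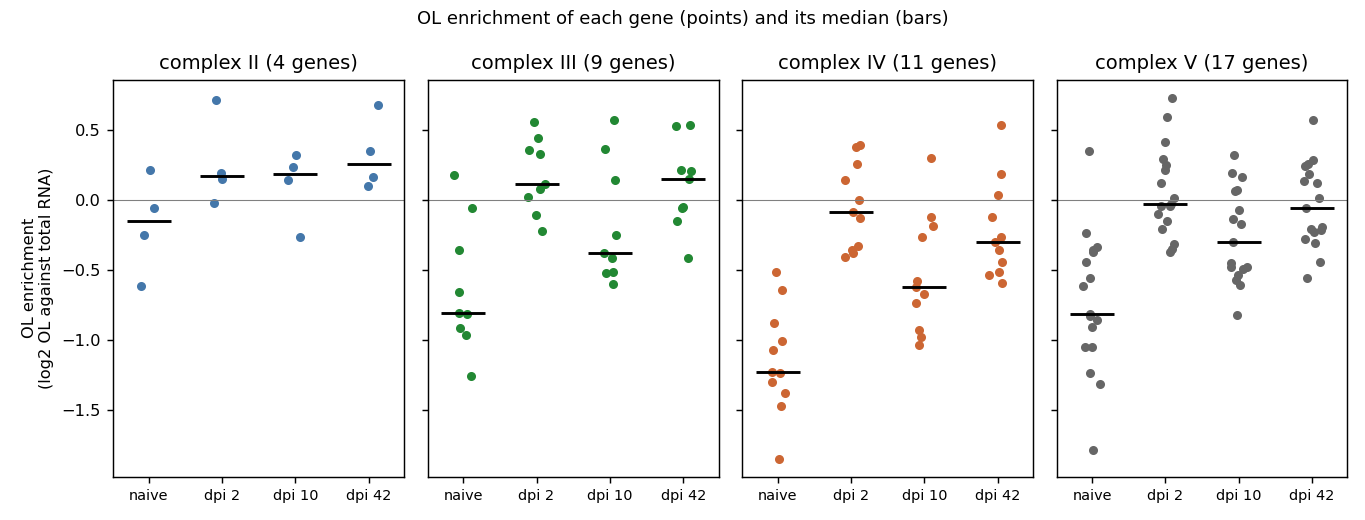
OL enrichment (y axis, log2 of OL against total RNA under TMM scaling) of each member (points) in naive tissue and on dpi 2, 10 and 42 (x axis), by complex, with medians as bars. Low-expressed isoforms and Cycs are left out. The medians of complexes III, IV and V lie below 0 in naive tissue and are higher on dpi 2 and 42 than in naive tissue.

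Differential OL enrichment tests whether OL and total RNA changed differently, with the libraries of a tissue pool as a block. On dpi 2, 31 of 48 members had a change in OL above that in total RNA (7.5% of all tested genes) and 0 below (5.81%), with a median difference of 0.89 beside 0.05 for all tested genes. On dpi 10 it was 18 of 48 (4.49%, median 0.43) and on dpi 42 it was 32 of 48 (4.34%, median 0.79), with 0 below at either time (3.14% and 3.51% of all tested genes). Without dpi 2 tissue pool 2 the dpi 2 number was 32, and without the conflicting libraries the dpi 42 number was 28. By complex, II to V gave 2, 6, 11 and 11 on dpi 2, then 0, 4, 8 and 5 on dpi 10, then 3, 7, 11 and 10 on dpi 42.

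Members that rose in OL while they fell in total RNA numbered 3 on dpi 2 (0.85% of all tested genes did so), 0 on dpi 10 (0.39%) and 2 on dpi 42 (0.379%).

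Cycs and Cox4i1 were among the members that passed the test of differential OL enrichment at each time. Uqcrq, Cox5a, Cox6a1 and further members of complexes III, IV and V did so too. For Cycs, which rose in OL on dpi 2 and fell in total RNA (68.0, 66.7 and 67.8 CPM in naive tissue, 51.7, 51.9 and 56.7 on dpi 2), the difference was 1.04 ± 0.14, q = 4.9e-04 on dpi 2, 0.73 ± 0.14, q = 0.0075 on dpi 10 and 0.66 ± 0.14, q = 0.013 on dpi 42. For Cox4i1 it was 0.90 ± 0.11, q = 2.5e-04, then 0.81 ± 0.11, q = 8.2e-04, then 1.05 ± 0.11, q = 1.7e-04. Sdha and Atp5b did not pass at any of the 3 times (0.21 ± 0.11, q = 0.27, and 0.26 ± 0.15, q = 0.32, on dpi 2). On dpi 2, 24 of 32 short members (75.0%) and 7 of 16 longer ones (43.8%) passed, where 34.4% of other short and 10.6% of other longer genes did. On dpi 42 it was 22 of 32 (68.8%) and 10 of 16 (62.5%), where 29.2% and 5.40% of the others did. At the successive times 18, 7 and 7 members passed with the length and GC offset, and 26, 4 and 19 with a total RNA library as the TMM reference. Leaving out a library or pool gave 18 to 36, 1 to 20 and 13 to 32, the lowest without naive OL replicate 2, dpi 10 OL replicate 2 and naive OL replicate 1.

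Tissue isoforms of complex IV were scarce. Cox6a2, the isoform of heart and skeletal muscle, had 0, 0 and 7 counts in naive total RNA. After injury it had 49, 79 and 57 counts at the first time, 48, 140 and 88 at the next and 204, 126 and 138 at the last. It rose at each time (q = 0.0048, 0.0027 and 0.0018), to 5.84, 3.78 and 3.93 CPM on dpi 42. Its OL libraries held at most 17 counts. Per kilobase its share of summed Cox6a1 and Cox6a2 was 2.03%, 1.13% and 1.55% in total RNA of dpi 42. The 8 striated muscle markers summed to 1.87 to 4.31 CPM in naive total RNA and 5.78 to 19.96 on dpi 42. None of them was without counts. Of these 8, 1 rose in total RNA on dpi 2, 0 on dpi 10 and 0 on dpi 42, beside 16.4%, 13.9% and 10.4% of all tested genes. Their median log2 fold changes were 2.75, 2.57 and 2.84. The part of these markers in the rise of Cox6a2 was not tested.

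Cox6b2, known as the testis form, had 2.62, 1.45 and 1.52 CPM in naive total RNA, 7.45, 7.32 and 8.72 on dpi 10 (2.07 ± 0.67, q = 0.022) and 6.55, 8.601 and 7.37 on dpi 42 (2.01 ± 0.67, q = 0.036). In OL it had 1.13, 0.508 and 1.49 CPM in naive tissue and 7.13, 8.92 and 1.84 on dpi 42 (2.51 ± 0.70, q = 0.0083), where replicate 3 was far below the others. The 3 testis germ cell markers had no count in any library.

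Cox4i2, an isoform known from lung and vessels that is tied to low oxygen, had 5, 2 and 6 counts in naive OL, 0, 27 and 49 on dpi 2 and 41, 26 and 37 on dpi 42. It rose on dpi 42 without overlap (2.84 ± 0.94, q = 0.024) and on dpi 2 with overlap (2.47 ± 0.94, q = 0.042), where 1 library had no count. The 8 pericyte markers summed to 8.42 to 22.7 CPM in OL without injury, 19.5 to 32.1 on dpi 2 and then, on dpi 42, 54.8 to 59.5, with 1 of them without a count in OL at each time after injury, and their part was not tested. Cox7a1, the muscle form of subunit VIIa, had 1.13, 0.592 and 3.52 CPM in naive OL and 6.40, 6.09 and 1.604 on dpi 42, with overlap (1.42 ± 0.65, q = 0.1). Cox8b had at most 40 counts and Cox7b2 at most 24 in a library, and neither passed the test against naive at any time.

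**Figure D5:**
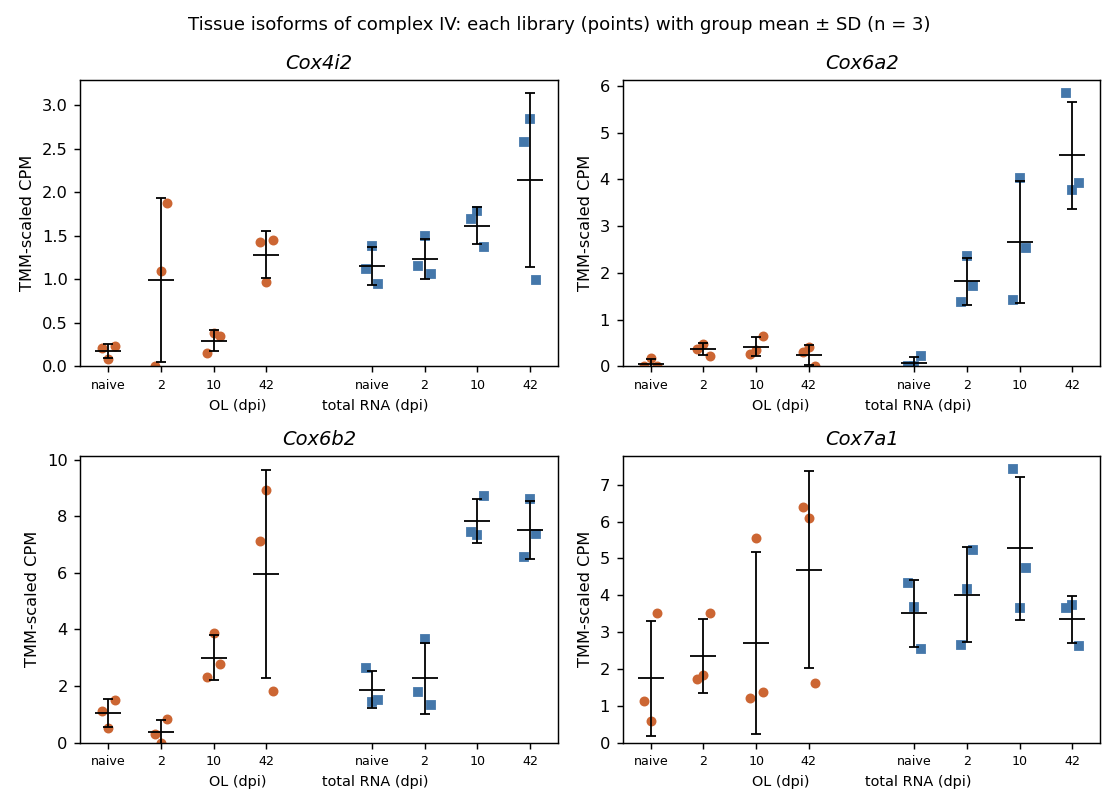
TMM-scaled CPM (y axis, from 0) of Cox4i2, Cox6a2, Cox6b2 and Cox7a1 in each library, with group mean ± SD (n = 3), in OL and total RNA of naive tissue and dpi 2, 10 and 42 (x axis). Cox6a2 is near 0 in naive total RNA and at 5.84, 3.78 and 3.93 CPM on dpi 42, and OL replicate 3 of dpi 42 is low for Cox6b2 and Cox7a1.

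The c-ring genes had separate calls in total RNA, and the differences between them were not tested. Atp5g2 rose on dpi 2, from 9.21, 10.9 and 10.8 to 17.5, 13.8 and 14.3 CPM (0.56 ± 0.18, q = 0.019). Atp5g1 and Atp5g3 did not pass the test on dpi 2 and fell on dpi 10 (-0.50 ± 0.14, q = 0.0096, and -0.54 ± 0.16, q = 0.014). The share of Atp5g2 among the c-ring genes per kilobase was 3.77%, 4.15% and 4.22% in naive total RNA, 7.87%, 6.43% and 6.25% on dpi 2 and 10.6%, 10.2% and 7.998% in naive OL. In OL all 3 rose on dpi 2. Atp5g1 went from 56.8, 56.2 and 65.6 to 89.5, 74.6 and 122 CPM (0.68 ± 0.14, q = 6.3e-04), Atp5g2 from 12.5, 13.2 and 13.7 to 16.97, 27.8 and 24.1 (0.81 ± 0.18, q = 0.0012) and Atp5g3 from 112, 131 and 187 to 208, 214 and 269.6 (0.69 ± 0.16, q = 0.0019). With the length and GC offset these 3 OL changes were negative. Over all isoform shares 80 comparisons were made, and the smallest 2-sided p that an exact permutation test of 3 against 3 can give is 0.10, or 0.222 after Benjamini-Hochberg adjustment, so no share can pass.

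Other genes of the pathway were counted from lists. Of 36 complex I subunits, which take electrons from NADH, 25 rose and 2 fell in OL on dpi 2 (median 0.73), beside 18.4% and 20% of all tested genes. On dpi 42 26 rose and 1 was lower (0.61), beside 16.2% and 16.9%. In total RNA of dpi 10 none of them rose and 27 fell (-0.47), beside 13.9% and 18.2%. The counts for OL on dpi 2 that follow read against the same 18.4% and 20%. Of 39 tested assembly factors, 16 rose and 3 fell (median 0.35). The copper chaperone Cox17 (1.10 ± 0.20, q = 1.2e-04) and the complex IV factors Cox14 (1.24 ± 0.15, q = 1.5e-06) and Coa3 (1.09 ± 0.13, q = 8.6e-07) were among those that rose. Lrpprc, which stabilizes mitochondrial mRNA, and Atpaf1, an F1 assembly factor, fell (-0.72 ± 0.16, q = 0.001, and -0.62 ± 0.18, q = 0.0076). Of 14 tested partners outside the pattern 7 rose and 0 fell (median 0.30), among them Ndufa4, now counted with complex IV (1.05 ± 0.15, q = 8.2e-06), and the ATP synthase inhibitor gene Atpif1 (0.90 ± 0.13, q = 8.7e-06).

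Mitochondrial genes outside the chain gave other counts. Of 21 genes of the outer membrane, import and matrix 7 rose and 4 fell in OL on dpi 2 (median 0.11). In total RNA on dpi 10, 0 rose and 16 fell (-0.54), beside 13.9% and 18.2% of all tested genes. Mitochondrial ribosomal proteins rose in OL on dpi 2 for 57 of 78 and fell for 2 (median 0.66). Cytosolic ribosomal proteins, with a median transcript of 751 bases, rose on dpi 2 for 76 of 76 in OL (median 1.42). They also rose for 76 of 76 in total RNA (0.91), where 16.4% of all tested genes rose.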

How the data were processed

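RNA-seq was measured in 24 libraries of mouse spinal cord, in 8 groups of 3. Per the methods of the study and its processing notes, the authors checked reads with FastQC 0.10.1, aligned them with STAR to mm10 (GRCm38.p6), counted reads per gene with HTSeq 0.10.0 and deposited raw counts. The strand setting, the annotation release and the handling of multiply matching reads are not given in the sources used here. The authors' tests used DESeq2.

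Here raw counts were fitted in R 4.3.3 with edgeR 4.0.16 (quasi-likelihood F test, TMM) as 8 groups in one model, for 17167 genes with at least 10 counts in total, and p-values were adjusted over all of them (q, called under 0.05). The SE is the fold change divided by the square root of F. Each replicate is a separate pool of tissue, so p-values of changes between times rest on the spread between pools. That spread was estimated for each gene over all 8 groups, OL and total RNA together, with all libraries taken as independent. Groups whose replicates differed more or less than others thus shared the estimate. The main test of OL enrichment had no block, so it took the OL and the total library of a pool as independent. For differential OL enrichment p-values measure how the difference of OL and total RNA within a pool varied between pools. Differential OL enrichment had the tissue pool as a block, because the column names give the pool of each library, and each pool has 1 OL and 1 total library. On dpi 42 replicates 1 and 2 of OL and of total RNA are numbered in opposite order of their pools. The deviations of such pairs correlated at 0.084, 0.0408 and 0.137 without injury, then at 0.0879, 0.0998 and 0.108 (dpi 2), 0.063, 0.0245 and 0.0258 (dpi 10), and -0.0109, 0.02 and 0.000873 (dpi 42). Groups came from the labels. Of 2 dpi 42 libraries whose labels conflict, the description and column name were followed.

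The members, gene lists and markers were chosen with earlier results of these data known. Values per library are given for core subunits, tissue isoforms, c-ring genes, the member of each complex with the smallest p in OL on dpi 2 or 42, and members that fell in OL or rose in total RNA. Cox7c, Cox7a2l, Atp5j, Atp5f1 and Cox7b were named after their values were seen, as members of counts of 5 or fewer. Transcript lengths came from GENCODE M21 for 17154 tested genes, and promoters from RefSeq. The alternatives were DESeq2 1.42.0, other scalings and filters, an offset for length and GC content, the block, fits of fewer groups, and leaving out libraries or pools. Floors cover counting error only. In simulated data with 100 genes changed by a log2 fold of 1 and 100 by 2, the scripts recovered the direction of the changed genes that were called. That does not tell how many genes were missed or falsely called. The counts were drawn with the same spread per gene in all groups and with independent libraries, so unequal spread and paired pools were not tested.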

Additional observations from a re-analysis of the deposited data

Results flagged for a closer look

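Members that rose in OL while they fell in total RNA, each at q under 0.05 by edgeR, numbered 3 on dpi 2, 0 on dpi 10 and 2 on dpi 42, where 0.85%, 0.39% and 0.379% of all tested genes did so. On dpi 2 they were Atp5f1, a stalk subunit of ATP synthase (OL 0.34 ± 0.11, q = 0.018, and total RNA -0.32 ± 0.11, q = 0.023), Uqcrfs1 (OL 0.29 ± 0.11, q = 0.048, and total RNA -0.33 ± 0.11, q = 0.024) and Cycs (OL 0.70 ± 0.11, q = 2.0e-05, and total RNA -0.34 ± 0.10, q = 0.014). On dpi 42 they were Cox7b, a small subunit of complex IV (OL 0.77 ± 0.18, q = 0.0019, and total RNA -0.54 ± 0.17, q = 0.029), and Cox4i1 (OL 0.68 ± 0.13, q = 3.8e-04, and total RNA -0.37 ± 0.13, q = 0.045). With the length and GC offset the OL change was -0.18 for Uqcrfs1 on dpi 2 and -0.32 for Cox4i1 on dpi 42.

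Of 48 members, the change in OL was above that in total RNA by the test of differential enrichment for 31 on dpi 2, 18 on dpi 10 and 32 on dpi 42. Of all tested genes 7.5%, 4.49% and 4.34% were. In total RNA the neuron markers went from 9521 to 10208 summed CPM in naive tissue to 3806 to 5086 on dpi 2. Their median log2 fold change was -1.16, -1.09 and -0.63 on dpi 2, 10 and 42. Spearman's rho of transcript length and differential enrichment over the members was -0.41, -0.15 and -0.60 at these times. The part of neurons and of length in this result was not tested.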

How the results depend on the processing

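With the length and GC offset 6, 0 and 4 members rose in OL on dpi 2, 10 and 42, 35, 39 and 34 fell in total RNA, and 11 were lower in OL on dpi 10. From dpi 2 to dpi 10 18 fell, from dpi 10 to dpi 42 2 rose, and 18, 7 and 7 had a higher differential enrichment. Log2 fold changes that turned sign with it were for the OL change on dpi 2 Atp5g1 -0.30, Atp5g2 -0.34, Atp5g3 -0.18, Cox4i1 -0.33, Cyc1 -0.35, Sdhb -0.49 and Uqcrfs1 -0.18, then for that on dpi 10 Cox4i1 -0.33, Cox6a1 -0.32 and Sdhb -0.37, then for that on dpi 42 Atp5g1 -0.73, Atp5g2 -0.80, Atp5g3 -0.43, Cox4i1 -0.32, Cox5a -0.11, Cox6a1 -0.19, Sdhb -0.38, Uqcrc1 -0.48, Uqcrfs1 -0.27 and Uqcrq -0.11, then for total RNA on dpi 2 Atp5e -0.45 and Cox6a1 -0.30, then for total RNA on dpi 42 Cox6a1 -0.39, then for OL enrichment in naive tissue Cox4i1 0.054, Cox6a1 0.12 and Uqcrq 0.093, then for OL of dpi 10 against dpi 2 Cox4i1 0.0032. With library sizes alone 4 rose in OL on dpi 10, 3, 14 and 3 fell in total RNA, 32, 40 and 28 were lower in OL on dpi 2, 10 and 42, and 11 had a higher differential enrichment on dpi 10. Those that turned sign were for OL enrichment in naive tissue Uqcrc2 -0.34, then for OL enrichment on dpi 10 Sdha -0.34, Sdhc -0.26 and Uqcrfs1 -0.21. The value of Cox5a, OL change dpi 2, became -0.055 with the offset, and that of Uqcrc2, OL enrichment dpi 10, became -0.0037 with library sizes alone. With a total RNA library as TMM reference 4 and 6 fell in total RNA on dpi 2 and 42 (and 6 and 3 rose), 10 were lower in OL on dpi 2, and 4 and 19 had a higher differential enrichment on dpi 10 and 42. In OL on dpi 10, 4 rose by DESeq2, 2 with its size factors and 2 with the stricter filter. In OL on dpi 2, 9 were lower than in total RNA by DESeq2 and 8 with its size factors. In fits of the groups compared alone 1 was lower in OL on dpi 2, 2 rose from dpi 10 to dpi 42, 0 differed between dpi 2 and dpi 42, and 19 had a higher differential enrichment on dpi 42. Without the libraries with conflicting labels 21 fell in total RNA, 4 were lower in OL and 10 rose from dpi 10 to dpi 42. The cause of these shifts was not tested.

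The replicate block by tissue pool gave 8 members lower in OL on dpi 2, and the fit with no replicate block gave 11 with a higher differential enrichment on dpi 10. With a block by replicate number, for changes between times, the 1 member lower in OL on dpi 42 was not called and 1 of the 2 higher in total RNA on dpi 42 was. The other counts stayed within 1.5 times with a block. That number pairs no pools across times: deviations of same-numbered libraries correlated at -0.309 to 0.248 in OL and -0.0519 to 0.0528 in total RNA.

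Leaving out a library or tissue pool, OL rises numbered 29 to 33, 0 to 8 and 23 to 32 on dpi 2, 10 and 42, and falls in total RNA 5 to 10, 18 to 25 and 5 to 21. Members lower in OL numbered 28 to 37 in naive tissue and 0 to 11, 14 to 21 and 4 to 12 later. From dpi 2 to dpi 10 27 to 33 fell, from dpi 10 to dpi 42 6 to 33 rose, and 4 to 9 differed between dpi 2 and dpi 42. Higher differential enrichment was found for 18 to 36, 1 to 20 and 13 to 32. Isoform shares without overlap numbered 36 of 80 comparisons, and 36 to 40 with a library left out. For 3 against 3 libraries such a separation has an exact permutation p of 0.10, so none of them is a call, and the comparisons share libraries. Of 373 alternative values of the counts 256 were within 1.5 times. Genes were also left out where a group held 3 counts or fewer, which was Cox7b2 at each time and Cox8b on dpi 10 alone. The median of the other members was then 0.70, 0.11 and 0.65 in OL on dpi 2, 10 and 42. Depth limits the tissue isoforms, whose libraries often held few counts, and not the common subunits.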

Other observations

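Genes that regulate the mitochondrial program were counted in OL. Of 21 such genes, 1 rose and 8 fell on dpi 2 (median -0.49), beside 18.4% and 20% of all tested genes, and 1 rose and 7 fell on dpi 42 (median -0.21), beside 16.2% and 16.9%. The one that rose at both times was Esrra, a nuclear receptor known to drive respiratory genes (0.59 ± 0.16, q = 0.0062 on dpi 2 and 0.63 ± 0.16, q = 0.0049 on dpi 42, log2 fold change ± SE by edgeR). Among those that fell on dpi 2 were Foxo3, a stress-response factor (-0.89 ± 0.11, q = 3.0e-06), the corepressor gene Ncor1 (-0.88 ± 0.13, q = 1.7e-05), Yy1 (-0.70 ± 0.13, q = 2.1e-04) and Polrmt, the mitochondrial RNA polymerase (-0.64 ± 0.23, q = 0.033). The coactivator gene Ppargc1a fell on dpi 42 (-1.54 ± 0.47, q = 0.015). Nrf1, whose motif was searched in the promoters, and Tfam, which packages mitochondrial DNA, did not pass the test on dpi 2 (-0.19 ± 0.19, q = 0.45, and 0.09 ± 0.17, q = 0.76). Transcripts of the list are long (median 3277 bases), and the part of length in these counts was not tested.

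Cytosolic ribosomal proteins were counted in differential OL enrichment too. Of 76, 41 were higher and 1 lower on dpi 2 (7.5% and 5.81% of all tested genes). On dpi 10 the counts were 0 and 10 (4.49% and 3.14%), and on dpi 42 they were 15 and 1 (4.34% and 3.51%). Complex I subunits gave 31, 20 and 28 of 36 higher at these times. The difference between these lists was not tested.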
